A study of Mus musculus with 6 samples.

Results

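H3K4me3, trimethylated lysine 4 of histone H3, was examined here at 2697 narrow peaks that lay inside the bodies of genes in mouse gastrocnemius muscle. They were taken from the single H3K4me3 list of the series, which held 16608 peaks, 16066 of them on chromosomes 1 to 19. A peak was a member if it lay on chromosomes 1 to 19, was narrower than 1500 bp, had its centre inside a RefSeq protein-coding gene and stood more than 2 kb from both ends of every protein-coding gene. The members were thus selected on position and width in this list, and both are given as description. The members made up 12.8% to 20.3% of the H3K4me3 peaks of a chromosome, with a median of 17.1%.

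The mark is deposited around transcription start sites of active and poised genes, and a nucleosome carrying it is bound by PHD-finger proteins, among them PHF2, which also has a JmjC domain and is thought to remove methyl groups from H3K9me2. Many mammalian genes have several promoters, and muscle genes such as those for tropomyosins, ankyrin-1 and myosin light chains are known to use internal ones to make tissue-specific isoforms. H3K4me3 inside a gene can also lie over a non-coding transcript, a CpG island or a strong enhancer, so position alone does not make a peak a promoter.

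The series holds 6 CUT&RUN libraries of gastrocnemius from 4-week-old male C57BL/6 mice. CUT&RUN releases DNA around an antibody-bound nucleosome with a tethered nuclease. CKO mice were Phf2 flox/flox;Acta1 Cre+, with Cre driven by the promoter of skeletal muscle actin, and gave 1 H3K9me2 and 1 input library. Ctrl mice were Phf2 flox/flox;Acta1 Cre-, the same floxed alleles without Cre, and gave 1 H3K4me3, 1 H3K9me2 and 2 input libraries. The title of the H3K4me3 library calls it wild type while its genotype label is that of Ctrl, and there is no CKO library for this mark. Whole muscle also holds nerve, vessel, blood and connective tissue cells, in which Acta1-driven Cre is not expected to act. With 1 library per mark and genotype, nothing below but the overlap with the 2 Ctrl inputs has a replicate check, no test was made, and genotype and library cannot be told apart. Of 10 muscle markers, 8 had H3K4me3 within 2 kb of a gene end, and Ckm and Acta1 did not. The same was true of 61.0% of all coding genes and of 67.7% of those over 4 kb. With so few markers, the count says little about the tissue. Phf2 itself held no member.

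Folds are the authors' enrichment of the peak summit over local background, and summit fragments are the whole number of DNA fragments stacked at the summit, recovered from fold and p-value. A listed start is a transcription start that the RefSeq promoter table gives for a coding gene, and a member counted as being at one if its centre lay within 500 bp of it. The sequences upstream of 12 such starts in 5 muscle-related genes are shown here. They bear on the contrast in CpG between internal starts with a member and internal starts with no peak. They are the 250 bases before each start, from RefSeq on GRCm38.p6, written 5′ to 3′ along the gene's strand with every CG pair in capitals, and the genes were chosen after their values had been seen. Prkag2, which encodes a regulatory subunit of AMP-activated protein kinase, has 3 listed starts inside its outer ends, and all 3 carried a member. Tbc1d1, a Rab GTPase-activating protein in insulin- and contraction-stimulated glucose uptake, had members at both of its listed starts. Esrrg, an orphan nuclear receptor of oxidative metabolism, had a member at each of the internal starts shown. The member at the first lay between 2 listed starts, 262 bp from the one shown and 221 bp from the next. That nearer start is not shown, and its 250 bases held 22 CG pairs, against 14 at the one shown. Myl1 encodes fast skeletal alkali myosin light chain. Nebl, the gene of nebulette, an actin-binding Z-disc protein related to nebulin, has 4 listed starts inside its ends, and a member lay at the first of them alone.
Prkag2 start 1, chr5:25100643-25100892, minus strand, marked: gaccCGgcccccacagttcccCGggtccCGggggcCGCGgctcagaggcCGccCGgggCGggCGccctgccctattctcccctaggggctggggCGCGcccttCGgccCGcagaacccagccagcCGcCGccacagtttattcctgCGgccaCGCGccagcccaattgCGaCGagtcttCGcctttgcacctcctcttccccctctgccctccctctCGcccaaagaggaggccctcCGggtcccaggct
Prkag2 start 2, chr5:24995754-24996003, minus strand, marked: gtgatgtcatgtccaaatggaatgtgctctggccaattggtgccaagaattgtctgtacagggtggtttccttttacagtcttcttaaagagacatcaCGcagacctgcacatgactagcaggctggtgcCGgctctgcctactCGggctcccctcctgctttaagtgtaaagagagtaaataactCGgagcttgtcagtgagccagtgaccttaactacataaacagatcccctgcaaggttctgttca
Prkag2 start 3, chr5:24908510-24908759, minus strand, marked: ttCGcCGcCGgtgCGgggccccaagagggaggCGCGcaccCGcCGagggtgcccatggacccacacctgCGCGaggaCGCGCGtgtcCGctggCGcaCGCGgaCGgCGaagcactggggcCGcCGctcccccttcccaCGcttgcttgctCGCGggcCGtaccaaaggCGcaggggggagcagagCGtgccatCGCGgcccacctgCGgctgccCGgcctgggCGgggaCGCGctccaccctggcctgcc
Tbc1d1 start 1, chr5:64160010-64160259, plus strand, marked: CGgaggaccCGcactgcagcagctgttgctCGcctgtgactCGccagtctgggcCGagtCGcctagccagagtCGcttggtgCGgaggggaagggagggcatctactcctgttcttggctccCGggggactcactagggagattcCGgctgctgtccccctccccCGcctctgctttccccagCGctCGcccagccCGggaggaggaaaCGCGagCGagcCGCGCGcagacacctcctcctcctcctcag
Tbc1d1 start 2, chr5:64230107-64230356, plus strand, marked: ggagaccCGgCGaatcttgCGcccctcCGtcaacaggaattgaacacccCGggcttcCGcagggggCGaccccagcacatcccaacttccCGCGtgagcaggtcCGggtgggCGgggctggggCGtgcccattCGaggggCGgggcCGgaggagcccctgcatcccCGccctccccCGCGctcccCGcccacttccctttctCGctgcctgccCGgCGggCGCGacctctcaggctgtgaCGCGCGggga
Esrrg first internal start, chr1:187651508-187651757, plus strand, marked: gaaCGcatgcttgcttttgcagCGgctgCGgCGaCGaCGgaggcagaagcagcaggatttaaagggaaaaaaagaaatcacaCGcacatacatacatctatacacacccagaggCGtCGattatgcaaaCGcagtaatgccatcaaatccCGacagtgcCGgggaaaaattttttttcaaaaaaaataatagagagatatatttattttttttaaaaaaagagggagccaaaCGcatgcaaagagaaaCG
Esrrg last internal start, chr1:187997577-187997826, plus strand, marked: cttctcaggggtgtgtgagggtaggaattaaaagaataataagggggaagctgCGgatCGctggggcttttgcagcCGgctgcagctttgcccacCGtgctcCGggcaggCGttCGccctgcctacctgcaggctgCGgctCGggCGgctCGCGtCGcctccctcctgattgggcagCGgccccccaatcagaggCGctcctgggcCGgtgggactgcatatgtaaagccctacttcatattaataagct
Myl1 start, chr1:66945057-66945306, minus strand, marked: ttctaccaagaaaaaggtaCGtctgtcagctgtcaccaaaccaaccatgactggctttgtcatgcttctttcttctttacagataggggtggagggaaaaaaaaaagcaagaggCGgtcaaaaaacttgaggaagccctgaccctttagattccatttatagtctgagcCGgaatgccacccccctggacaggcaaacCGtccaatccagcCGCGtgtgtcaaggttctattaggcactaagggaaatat
Nebl start 1, chr2:17731135-17731384, minus strand, marked: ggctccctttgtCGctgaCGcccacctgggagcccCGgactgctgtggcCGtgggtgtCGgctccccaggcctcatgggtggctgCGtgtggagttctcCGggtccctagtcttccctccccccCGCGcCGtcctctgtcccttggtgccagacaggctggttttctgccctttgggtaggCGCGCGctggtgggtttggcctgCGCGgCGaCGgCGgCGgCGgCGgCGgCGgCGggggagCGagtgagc
Nebl start 2, chr2:17670166-17670415, minus strand, no peak: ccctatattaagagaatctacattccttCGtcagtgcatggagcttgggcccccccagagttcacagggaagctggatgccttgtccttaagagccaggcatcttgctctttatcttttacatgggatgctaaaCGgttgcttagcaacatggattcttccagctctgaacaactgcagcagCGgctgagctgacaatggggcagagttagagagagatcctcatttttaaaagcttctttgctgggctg
Nebl start 3, chr2:17526131-17526380, minus strand, no peak: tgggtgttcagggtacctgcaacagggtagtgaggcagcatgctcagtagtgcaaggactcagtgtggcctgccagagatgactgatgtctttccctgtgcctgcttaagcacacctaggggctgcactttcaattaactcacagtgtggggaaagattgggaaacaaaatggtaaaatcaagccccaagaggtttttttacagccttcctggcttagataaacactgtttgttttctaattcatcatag
Nebl start 4, chr2:17462857-17463106, minus strand, no peak: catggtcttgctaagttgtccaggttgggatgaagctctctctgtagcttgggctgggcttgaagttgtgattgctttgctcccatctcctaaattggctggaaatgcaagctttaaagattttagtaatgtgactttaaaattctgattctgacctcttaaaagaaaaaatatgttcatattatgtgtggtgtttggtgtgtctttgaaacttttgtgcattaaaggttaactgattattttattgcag

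The 250 bases shown for Nebl held 25 CG pairs at the marked start 1, against 3 at start 2 and 0 at starts 3 and 4. G and C made up 72.4% of the bases at start 1, against 48.4%, 46.4% and 36.8% at the starts with no peak. In Prkag2 the 3 marked starts held 23, 4 and 34 CG pairs, so 1 start poor in CG was marked too. The peak at that start 2 was the lowest of the 3 in the gene, with a fold of 6.91 and 12 summit fragments, against 9.49 and 76 at start 3 and 11.4 and 88 at start 1. Myl1 also carried a peak over sequence poor in CG: 6 pairs in 250 bases, with a TATA box, a CCAAT box and an ETS core in its start window and a peak of fold 13.3 with 36 summit fragments. The peak centre lay 164 bp downstream of that start.

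The members were lower and narrower than peaks at gene ends. Their median fold was 7.42 (quartiles 4.98 and 11.1) and their median summit height 22 fragments, against 11.2 (8.48 and 14.2) and 63 fragments at the 10769 narrow peaks within 2 kb of a coding gene end. Median width was 601 bp among members and 795 bp at gene ends. The 1805 narrow peaks outside coding genes were close to the members, with a median fold of 6.85 and 14 summit fragments. Member folds ran between 2.39 and 22.7 and summit heights between 4 and 193 fragments, so the lowest members rest on very few fragments. Local background at the members had a median of 1.86 fragments, against 4.21 at gene ends, and the lowest background in the list was 0.482.

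Listed starts divided the members into 2 unlike groups. For 2152 members (79.8%) the host gene was in the promoter table, and 859 of these, 39.9% (95% exact interval 37.8% to 42.0%), were at a listed start of their own gene. The share was 30.3% with a window of 250 bp and 43.8% with 1000 bp. A further 56 members were at a listed start of a lncRNA gene, and 1237 were at neither. No member was at a listed start of another coding gene, as the rule on gene ends nearly requires. The name candidate alternative promoter thus fitted the annotation for a minority of the members whose gene could be looked up. Intervals here and below cover counting error alone, because peaks of 1 library are not replicates.

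Members at listed starts were nearly as high as gene-end peaks, and members away from starts were lower. The 859 at a start had a median fold of 10.6, 58 summit fragments and a width of 766 bp, against 5.75, 13 fragments and 485 bp for the 1237 away from starts. A fold of 10 or more was reached by 56.5% of members at a start and 16.8% of those away, against 61.9% of gene-end peaks. Members at lncRNA starts lay between, with a median fold of 8.20 and 24.5 summit fragments. The 545 members whose gene was not in the table had a median fold of 6.87 and 19 fragments.

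**Figure D1:**
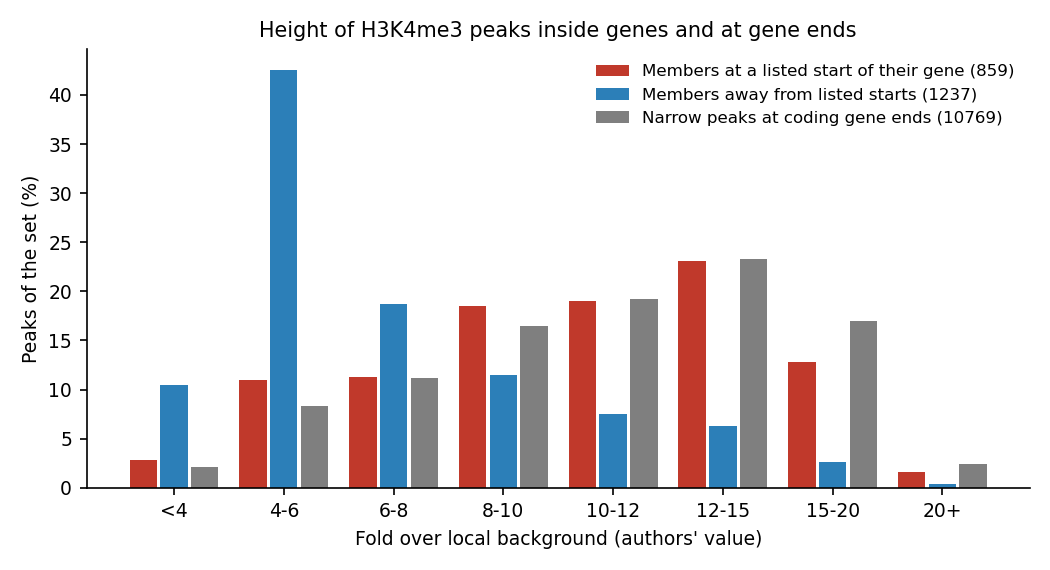
Share of peaks (%) in each range of the authors' fold over local background, for 859 members at a listed start of their gene (red), 1237 members away from listed starts (blue) and 10769 narrow peaks at coding gene ends (grey). The blue bars are highest between 4 and 6, at 42.5%, while red and grey are both highest between 12 and 15, at 23.1% and 23.3%.

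Members at a start lay mostly over the first transcribed bases. The centre was downstream of the start in 679 of 859 (79.0%), with a median offset of 137 bp and quartiles of 25 and 237.5 bp. The start was the one farthest upstream among those listed for its gene in 399 cases (46.5%), and 460 had another listed start further upstream. For 345 it was the only listed start. Such a start can be the usual one of its gene, since the gene's outer ends also take in longer model transcripts: the median distance from the start to the outer 5′ end was 10.3 kb, with quartiles of 4.16 and 32.3 kb. Members at the farthest upstream start had a median fold of 11.2 and 68 summit fragments, and those further down 10.1 and 49.

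**Figure D2:**
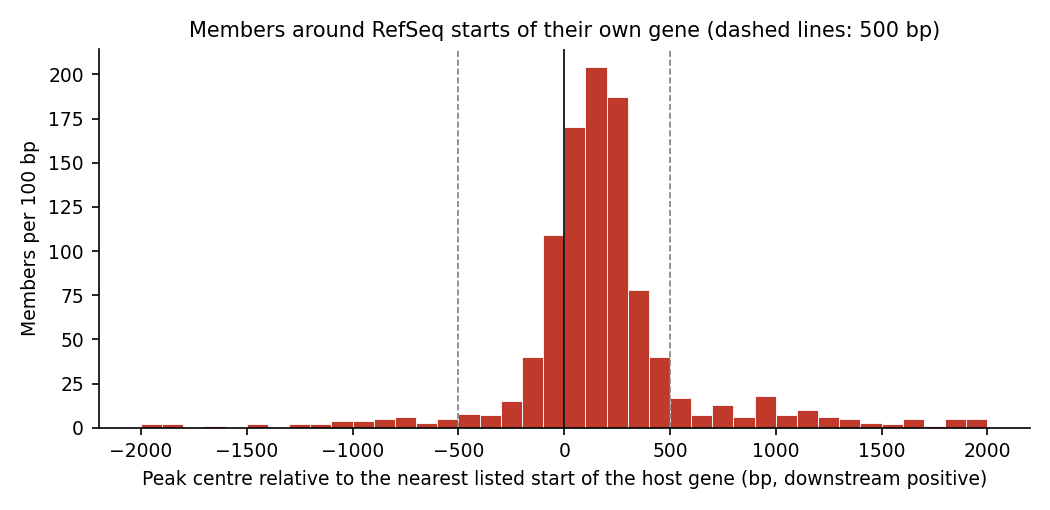
Number of members per 100 bp of distance between the peak centre and the nearest listed start of the host gene (bp, downstream positive; dashed lines mark the 500 bp window). The highest bar, 204 members, stands 100 to 200 bp downstream of the start, and bars beyond 500 bp upstream hold at most 6 members.

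Some genes with a marked start inside them had no peak at the outer 5′ end. Among genes whose farthest upstream listed start was marked, 149 of 399 (37.3%, 32.6% to 42.3%) also had a peak within 2 kb of the outer 5′ end. Among genes with a marked start further down it was 255 of 436 (58.5%, 53.7% to 63.2%). Among hosts with a member away from starts it was 68.6% (65.6% to 71.5%). For the farthest upstream starts, no listed start of the gene lies nearer the outer 5′ end, by definition. In 232 of the 821 genes with a member at a listed start (28.3%), peaks stood at listed starts more than 2 kb apart. In these genes several starts were thus marked in the same muscle. The 821 include genes with 1 listed start, which cannot count here: such genes held 345 of the 859 members at a start. The share over all genes with listed starts that far apart was not computed. Members stood at 2 or more listed starts in 34 genes and at 3 in 4 of them.

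Those 4 genes were Prkag2, Abr, Trim2 and Zmynd8. Abr encodes a GTPase-activating protein for Rac, Trim2 a ubiquitin ligase and Zmynd8 a chromatin reader. The 3 members of Abr had folds of 10.2, 12.7 and 8.04. Trim2 had 1 high member, of fold 14.3 with 101 summit fragments, between members of 5.12 and 6.55 with 8 and 10 fragments. In Zmynd8 the folds were 8.39, 7.40 and 3.48. The Prkag2 starts lay 5.64, 110.5 and 197.8 kb from the gene's outer 5′ end, which had no peak.

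Other genes with 2 marked internal starts included several with known roles in muscle. Tbc1d1 had folds of 11.4 and 13.6, with 95 and 60 summit fragments, at starts 3.96 and 74.1 kb into the gene, and no peak at its outer ends. Lmna, which encodes the A-type lamins of the nuclear envelope, had folds of 11.5 and 10.2. Palld, the gene of the actin-bundling protein palladin, had folds of 13.0 and 10.3, and Speg, a kinase of the triad and sarcomere, 8.09 and 4.69. Srebf1, the lipogenic transcription factor, had folds of 9.70 and 11.9, and Ncoa7, a nuclear receptor coactivator, 7.90 and 12.8. Pmp22, which encodes a myelin protein of Schwann cells and is also made in other cells, had folds of 7.69 and 7.28 with 94 and 89 fragments. Which cell type of the muscle carried each peak was not tested.

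**Figure D3:**
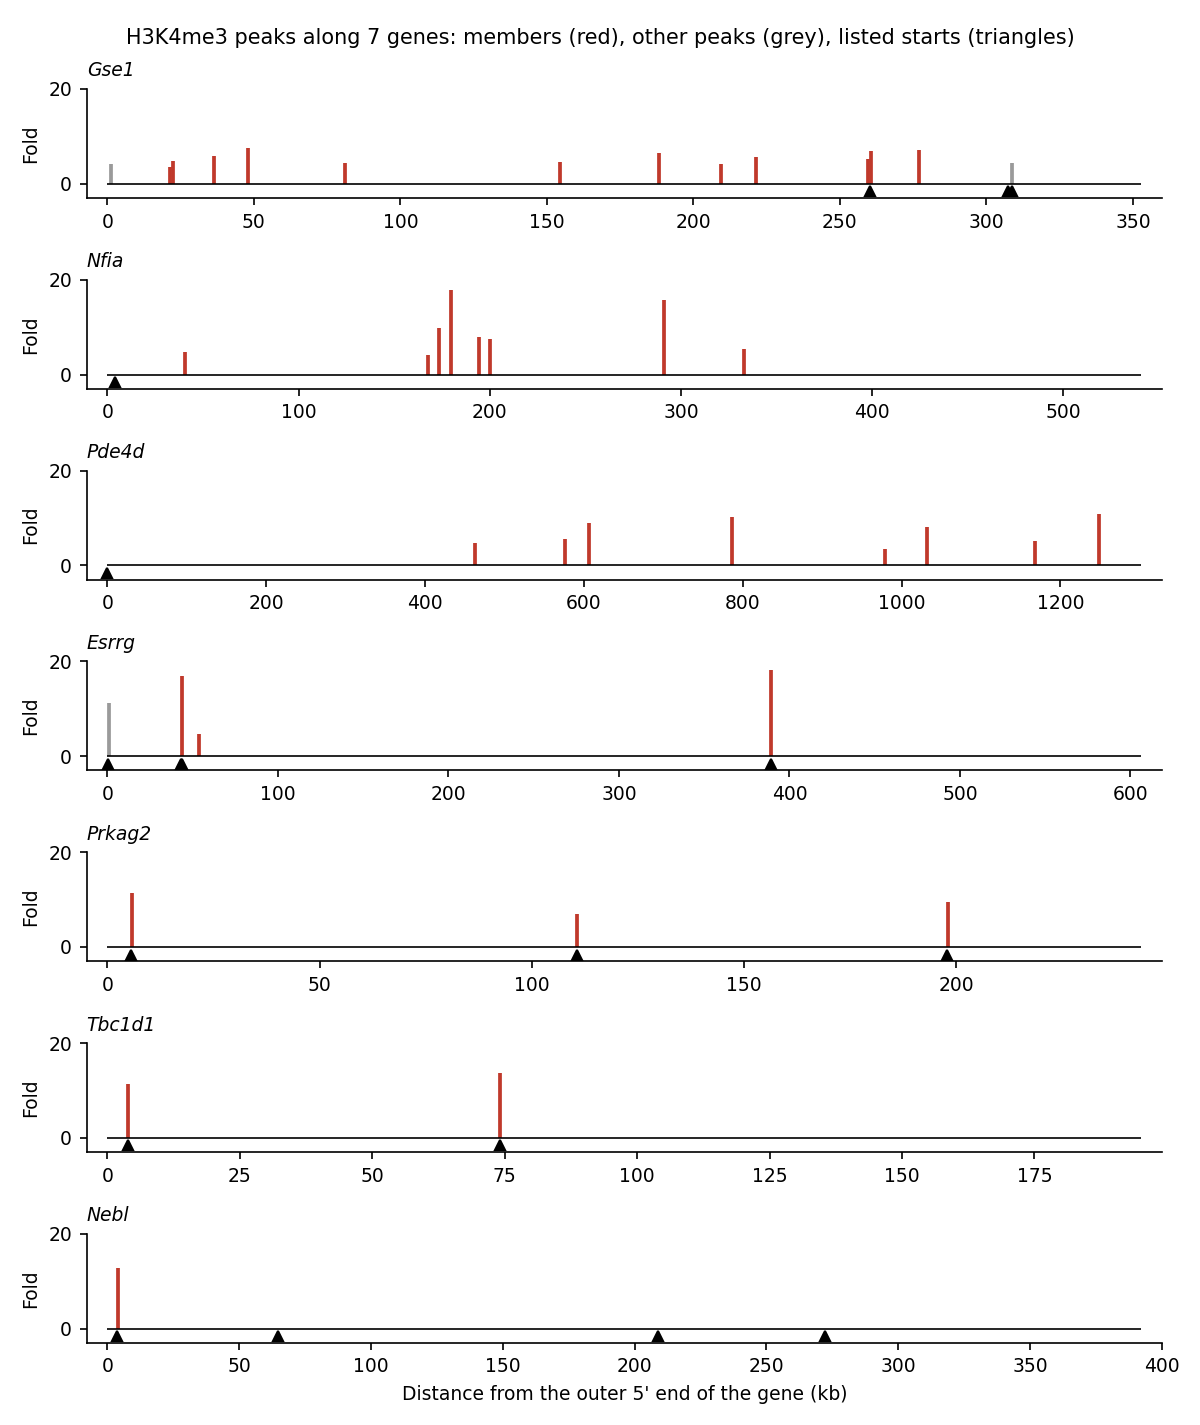
H3K4me3 peaks along 7 genes by distance from the outer 5′ end (kb, own scale per panel) and authors' fold (vertical axis): members in red, other H3K4me3 peaks in grey, listed starts as triangles on the baseline. Each of the 3 Prkag2 and 2 Tbc1d1 starts stands under a member, 1 of 4 Nebl starts does, and the 8 members of Nfia and of Pde4d stand away from the listed coding start.

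The reverse view took every listed start more than 2 kb inside a coding gene. There were 2930 such internal starts in 2183 genes, and 960 of them, 32.8% (31.1% to 34.5%), had a member within 500 bp. Of the 17155 listed starts within 2 kb of a gene end, 60.9% had an H3K4me3 peak of any kind. The 2 shares are not on like terms, since the first counts members alone. No H3K4me3 peak of any kind was found at 1762 internal starts, so some internal starts carried a peak that was not a member. Among 512 genes with 2 or more internal starts, 88 had all of them marked, 158 had some and 266 had none.

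Marked internal starts were rich in CpG. The observed-to-expected CpG ratio of the 300 bases from 250 before to 50 after the start had a median of 0.729 at marked internal starts, against 0.237 at the 1762 internal starts with no H3K4me3 peak. It was 0.625 over all 17155 listed starts within 2 kb of gene ends, with or without a peak. The 0.625 is thus not on like terms with the value of the marked internal starts. The share of internal starts with a member was 2.70% for ratios below 0.2, 11.4% from 0.2 to 0.4, 37.1% from 0.4 to 0.6, 70.2% from 0.6 to 0.8 and 79.5% above 0.8. Median GC content was 62.7% at marked and 49.7% at unmarked internal starts. Of the 960 marked starts, 20 had a ratio below 0.2 and 96 a ratio from 0.2 to 0.4.

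**Figure D4:**
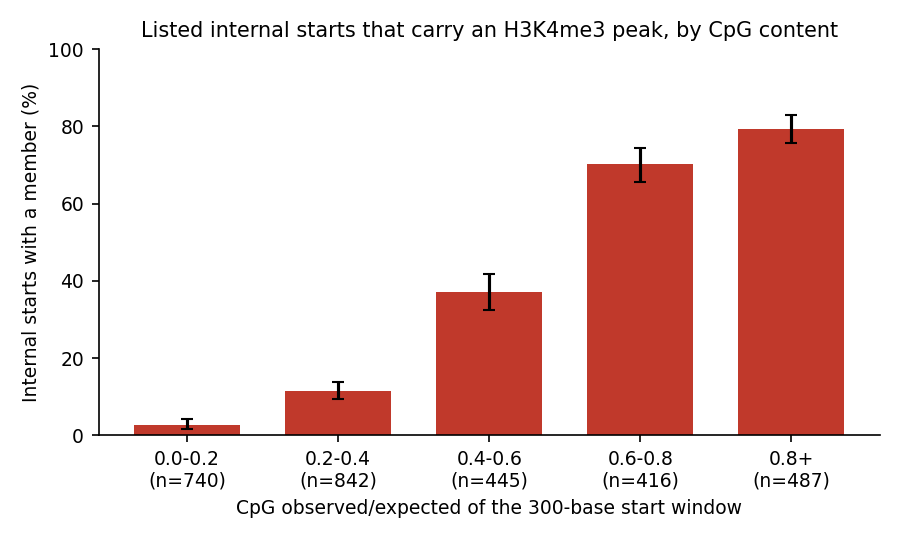
Share of listed internal starts with a member within 500 bp (%, bars; whiskers are exact 95% intervals for counting error) in 5 ranges of the CpG observed-to-expected ratio of the start window. The bars run upward through 2.70%, 11.4%, 37.1%, 70.2% and 79.5%, with 740, 842, 445, 416 and 487 starts.

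Motifs that always contain a CG were found at a larger share of marked than of unmarked internal starts. GGGCGG, the GC box bound by Sp proteins, was in 67.7% of marked and 15.8% of unmarked internal starts, against 47% of all 20085 listed coding starts. CCGGAA, the ETS core, was in 21.9% and 5.28%, against 19.1% of all starts, and GCGCATG, part of the NRF1 palindrome, in 5.52% and 1.42%, against 4.84%. The motifs that need no CG differed the other way, although the middle bases of CANNTG can be CG. TATAAA, the TATA box, was in 4.48% of marked and 15.3% of unmarked internal starts, against 12.7% of all. CANNTG, the E-box bound by MYOD1 and other bHLH factors, was in 63.5% and 79.5%, against 68.7%, and CCAAT in 32.3% and 35.9%, against 38.1%. Motifs were searched on both strands of the 300 bases, and motifs may overlap. A match is a run of letters and not a binding site.

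Hosts were long genes. The members lay in 2146 genes, 12.7% of the 16860 coding genes over 4 kb, and host genes had a median length of 58.9 kb, against 24.3 kb for all coding genes over 4 kb. The share of genes with a member was 2.54% from 4 to 10 kb, 9.07% from 10 to 30 kb, 15.9% from 30 to 100 kb, 29.8% from 100 to 300 kb and 36.8% above 300 kb. Members per Mb of gene ran the other way from 10 kb on, with 5.38, 3.52, 2.57 and 1.17. Most hosts, 1738, held 1 member, 299 held 2 and 109 held 3 or more, and 20 members lay in more than 1 gene. Members at starts stood toward the 5′ side, with 42.6% in the first 25% of the gene and 5.82% in the last 25%, while members away from starts were spread evenly, with 25.9% and 22.0%. Members at starts can lie only where internal starts are listed, and the position of all listed internal starts along their genes was not examined.

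An H3K4me3 peak within 2 kb of either gene end was found at 63.0% of hosts (61.0% to 65.1%), against 67.7% of all coding genes over 4 kb. The share was 51.3% (47.9% to 54.8%) for hosts with a member at a listed start. It was 71.5% (68.5% to 74.3%) for hosts with a member away from starts. Some genes held both kinds of member, so the sets were not independent. For 399 of the 859 members at a start, no listed start of the gene lay nearer its outer 5′ end. The median lengths of these host sets were 53.4 and 69.7 kb. Among hosts with no marked end, the highest member folds were those of Gcfc2 (22.7), Sri (21.3), Poli (21.1), Nemp2 (21.1) and Tnip1 (20.7), all of which had 110 or more summit fragments at the member.

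Of the 15 highest members by fold, 9 stood at a listed start of their gene. Gm33989 had a fold of 22.7 with 135 fragments, Zfp445, a KRAB zinc finger gene of imprint maintenance, 22.1 with 116, and Paox, a polyamine oxidase, 22.0 with 110. Mtmr2, a phosphoinositide phosphatase, had 21.7 with 153 and Aars, alanyl-tRNA synthetase, 21.3 with 105. Their centres lay within 233 bp of a listed start. Sri was different: this gene of sorcin, a calcium-binding regulator of the ryanodine receptor, held the member with most summit fragments, 193, at a fold of 21.3, and the peak stood 10507 bp from the gene end and from its listed start. A non-coding gene, Gm15730, ended 1009 bp away. The next highest summits were in Xpo4, a nuclear transport receptor (191 fragments, fold 18.7), and Flrt2, a membrane adhesion protein (174 fragments, fold 10.3). Numbered Zfp genes were hosts in 57 of 376 cases (15.2%), close to the 12.7% of all genes over 4 kb, and 26 of these had the member at a listed start.

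The genes with the most members differed in length. Gse1, the gene of a coiled-coil protein found with histone deacetylase complexes, held 12 members over 352.9 kb, 11 of them away from its listed starts and 10 with a fold below 7. Its 2 highest summits, of 110 and 84 fragments, stood beside each other around a listed start 260.4 kb into the gene. Nfia, the gene of nuclear factor I/A, held 8, among them a group of 5 between 167.9 and 200.3 kb with folds of 4.05, 9.91, 17.9, 7.87 and 7.47, and 1 of fold 15.8 at the start of the lncRNA Gm19417. Pde4d, a cAMP phosphodiesterase, held 8 with folds between 3.37 and 10.9 and no peak at its listed start. Nfix, a nuclear factor I gene of the fetal to adult muscle transition, Cuedc1, Dab2ip and Zfp536 held 6 each, over 94.995 kb in Cuedc1 and 96.527 kb in Nfix. Neighbouring peaks can be pieces of 1 marked stretch: 164 members (6.08%) had another H3K4me3 peak within 1 kb, against 4.85% of gene-end peaks.

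Among 25 genes described as using an internal or alternative promoter in muscle, 18 were hosts, against 12.7% of all coding genes over 4 kb, and 5 had a member at a listed start. The list had a median gene length of 78.8 kb, and the part of length in its count was not tested. Igf1, the growth factor gene, had a member of fold 13.8 and 61 fragments, 666 bp upstream of its listed start. Bdnf, a neurotrophin gene with many promoters, had members of 12.7 and 5.98, and Tpm3, slow tropomyosin, 9.95 at a listed start. Tpm1 had 6.81, and Plec, the gene of plectin, had 3 low members of 3.94, 4.62 and 3.21. In Ppargc1a, which encodes the coactivator of mitochondrial biogenesis, members of 6.41 and 4.65 lay together, 98318 and 99442 bp from the nearest gene end. Ttn, Asph, Tpm2, Tnnt3, Nos1, Il15 and Tcf12 held none. In Ank1, whose internal promoter makes small muscle ankyrin, members of 3.70 and 4.75 lay 10866 and 9507 bp from one end of the gene, the second 1561 bp from Mir486, a microRNA of muscle, while the highest of the 3, of 10.8, lay 83799 bp from the nearest end.

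Of 25 sarcomere, Z-disc and M-band genes 9 (36%) were hosts, against 12.7% of all coding genes over 4 kb. Nebl had a member of fold 12.8, Ldb3, a Z-disc protein gene, members of 11.5 and 5.41, and Tpm3 and Tpm1 those given above. The members in Myom1, Myom2, Mybpc2 and Flnc had folds between 3.51 and 4.19. Of 22 calcium handling genes 7 (31.8%) were hosts. Camk2b, a calcium/calmodulin kinase, had a member of 12.8 with 84 fragments, and Stim1, the sensor of calcium store depletion, 9.64 with 83 at a listed start. The median gene lengths of the lists were 28.7 and 66.0 kb, against 24.3 kb over all coding genes over 4 kb.

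Of 25 muscle transcription factors and regulators 16 (64%) held 40 members between them, against 12.7% of all coding genes over 4 kb, and their median gene length was 145.3 kb against 24.3 kb. Mbnl1, a splicing regulator of muscle maturation, had 10.9 with 106 fragments at a listed start, Tbx15, a factor of glycolytic fibres, 12.8, and Mef2c, a myogenic enhancer factor, 9.52 and 8.87. Of 26 nuclear receptors and cofactors, with a median length of 109.1 kb, 16 (61.5%) were hosts. The highest members were in the estrogen-related receptors, with 18.8 in Esrrb and 17.0 and 18.2 in Esrrg, all 3 at listed starts. Hdac9, a class II histone deacetylase, followed with 11.5. Of 24 cytoskeletal linker genes, with a median length of 257.3 kb, 17 (70.8%) were hosts, led by Ank2 (16.9), Dst, the gene of dystonin (12.2), Ank1 and Sptbn1 (10.1).

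Of 25 metabolic and insulin signalling genes, with a median length of 104.4 kb, 12 (48%) were hosts, against 12.7% of all coding genes over 4 kb with their median of 24.3 kb. Pfkfb3, a glycolytic regulator, had 4 members, of 9.84, 5.26, 3.89 and 12.7, and Acacb, acetyl-CoA carboxylase 2, had 12.4. Insr, the insulin receptor gene, had members of 12.2 and 4.72, and Igf1r of 10.6 and 4.05. Among 22 enzymes of H3K9 and H3K4 methylation, with a median length of 65.7 kb, 6 (27.3%) were hosts. Kdm4c, an H3K9 demethylase gene, had a member of 14.2 with 145 fragments 368 bp downstream of a listed start, and no peak at its ends. Jmjd1c had 10.9 and 8.16 at 2 listed starts and Kdm2b 10.1 at one.

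Genes of cell types other than muscle fibres were hosts as well. Of 20 neuronal adhesion and receptor genes, with a median length of 1116 kb, 11 (55%) held 12 members and only 3 of these hosts had a marked end. Their summits were low: Lsamp had 22 fragments (fold 11.4), Dlg2 23 (12.3), Cntnap2 14 (9.45) and Nlgn1 17 (9.34). The Cntnap2 member also overlapped peaks in both Ctrl inputs (5.11 and 5.15) and in CKO H3K9me2 (6.28). Without members overlapping input, 8 of the 20 genes were hosts. Host counts were 2 of 13 endothelial and mural (15.4%), 3 of 12 fibroadipogenic (25%), 2 of 11 blood and immune (18.2%), 3 of 10 satellite cell (30%) and 1 of 7 Schwann cell markers (14.3%), against 12.7% of all coding genes over 4 kb. With so few genes a list, these shares say nothing particular of these cell types. Pax7, the satellite cell factor, had members of 9.32 and 4.17. Fewer cells of a type and less of the mark per cell cannot be told apart in whole muscle.

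Non-coding genes ended near a minority of members. There were 377 members, 14.0%, within 2 kb of an end of a non-coding RefSeq gene, against 19.6% of all H3K4me3 peaks on chromosomes 1 to 19. The nearest was a lncRNA gene for 304, a pseudogene for 28 and a microRNA gene for 24. Members lay 51 bp from Mir199a-2 in Dnm3 (fold 4.74), 3 bp from Mir26a-1 in Ctdspl (5.90) and 23 bp from Mir761 in Nrd1 (11.7). These 3 peaks were small, with 8, 10 and 20 summit fragments. The highest among the 24 was in Lck, of fold 16.3 with 47 fragments, 1197 bp from Mir8119.

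Input libraries, for which the sources used here describe no preparation, also had peaks at members. The CKO input overlapped 22.6% of members and the Ctrl inputs 5.34% and 2.74%, against 33.5%, 9.06% and 4.39% of all H3K4me3 peaks. The input lists differed in size, with 10683 peaks on chromosomes 1 to 19 in CKO and 2999 and 1277 in Ctrl. Any input overlapped 685 members, 25.4% (23.8% to 27.1%), against 38% of all peaks, 43.1% of gene-end peaks and 20.8% of peaks outside coding genes. It was 40.9% (37.6% to 44.2%) for members at a start and 14.8% (12.9% to 16.9%) for those away. Peak height differed between these sets, so the shares are also given by fold. At folds from 10 to 15 the shares were 53.7% (48.4% to 59.0%) at starts and 38.0% (30.7% to 45.7%) away, against 52.9% at gene ends. At folds from 6 to 10 they were 36.3% at starts and 17.6% away, against 36.6%, and below 6 they were 11.0% and 5.65%, against 13.4%. At folds of 15 and above the shares were alike, 41.1% (32.4% to 50.3%) of 124 members at starts and 40.5% (24.8% to 57.9%) of 37 away, against 47.0% at gene ends.

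A few members were at least as high in an input as in the H3K4me3 list. There were 54 with an input fold at or above their own, 19 in all 3 inputs and 10 in all 5 other lists. Of all H3K4me3 peaks, 50 were in all 5 other lists, so such peaks were not confined to members. In Zc3h7a the fold was 22.4 for H3K4me3, 29.6 in the CKO input, 26.8 and 27.2 in the Ctrl inputs, 27.8 for CKO H3K9me2 and 25.2 for Ctrl H3K9me2. The member shared by Cmss1 and Filip1l had 21.5 for H3K4me3, 29.9 in the CKO input, 27.0 and 26.7 in the Ctrl inputs, 25.9 for CKO H3K9me2 and 22.0 for Ctrl H3K9me2. Jarid2 had 25.9 and Cdk8 22.9 in the CKO input, against 12.5 and 8.41 for H3K4me3. At these 4 members the fold was higher in the CKO input than in the H3K4me3 list.

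H3K9me2, the repressive mark that PHF2 is described as removing, was listed at few members. A CKO H3K9me2 peak overlapped 174 members, 6.45% (5.55% to 7.45%), and a Ctrl H3K9me2 peak 42, 1.56% (1.12% to 2.10%), against 11.1% and 2.97% of all H3K4me3 peaks. The lists held 12508 peaks in CKO and 3595 in Ctrl on these chromosomes, and with both cut to the same number by p-value the CKO share of members was 1.52%. Most overlaps also had input: 108 of 174 in CKO and 36 of 42 in Ctrl. Input-free H3K9me2 peaks overlapped 68 members, 2.52%, in CKO and 7, 0.260%, in Ctrl, against 3.87% and 0.909% of all H3K4me3 peaks. Members at starts overlapped a CKO H3K9me2 peak in 10.8% (8.83% to 13.1%) and members away in 3.56% (2.60% to 4.75%), against 12.1% at gene ends. The gap was not the same at every peak height. Below a fold of 6 the shares were 1.69% at starts and 1.53% away, against 2.59% at gene ends, and from 6 to 10 they were 7.42% and 4.28%, against 9.41%. From 10 to 15 they were 14.96% (11.4% to 19.1%) at starts and 6.43% (3.25% to 11.2%) away, against 15.01%. At 15 and above the order was the other way, with 14.5% (8.84% to 22.0%) at starts and 18.9% (7.96% to 35.2%) away, against 14.5%, and these intervals overlap widely.

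**Figure D5:**
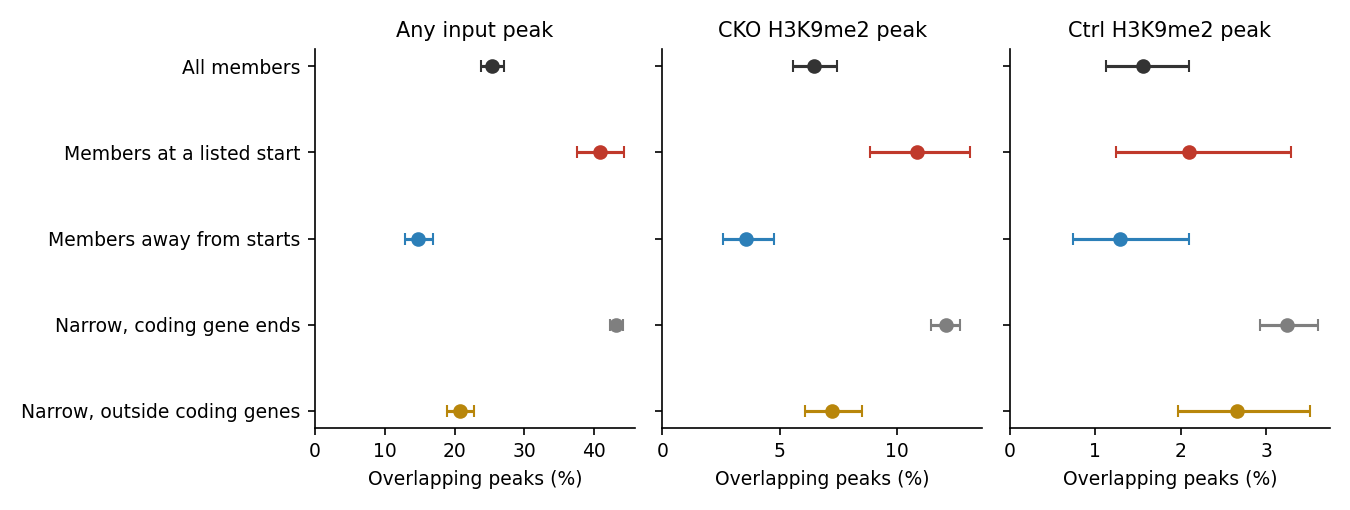
Share of peaks (%) that overlap any input peak, a CKO H3K9me2 peak and a Ctrl H3K9me2 peak (3 panels with separate scales), for all members, members at a listed start, members away from starts, narrow peaks at coding gene ends and narrow peaks outside coding genes. Points are shares and whiskers exact 95% intervals for counting error. In the input and CKO H3K9me2 panels members at a start lie beside gene-end peaks and members away from starts are lowest.

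The input-free H3K9me2 peaks at members were small, with median summits of 8 fragments in CKO and 6 in Ctrl. In CKO the highest were in Gm33989 (9.69), Echdc1 (9.04), Snrpn (8.95), Trdn (8.78) and Abhd18 (8.12). Trdn encodes triadin of the sarcoplasmic reticulum, and its member had 8 H3K4me3 and 14 CKO H3K9me2 summit fragments. Snrpn is an imprinted gene in which active and repressive marks are known to sit on opposite parental copies. Its member lay 58737 bp from the nearest listed start of the gene, and whether the marks lay on different copies was not tested. In Ctrl the highest were in Tfpi2 (5.85), Celf2 (4.91), Pank1 (4.84), Echdc1 (4.31) and Prrx1 (4.11). Only Echdc1 had an input-free H3K9me2 peak in both lists, with 9.04 in CKO and 4.31 in Ctrl, over an H3K4me3 peak of fold 19.9 at a listed start.

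Some members lay very far from any coding gene end. The farthest were in Dlg2 (786069 bp, fold 12.3), Dpp10 (713927 bp, 5.40), Tenm3 (617722 bp, 9.15) and Cntn5 (612752 bp, 4.05), all genes of neuronal or cell surface proteins over 1000 kb long. The Dpp10 member had 7 summit fragments and also overlapped peaks in the CKO input (5.81), the first Ctrl input (4.99) and CKO H3K9me2 (5.11). The Dlg2 member overlapped an input-free CKO H3K9me2 peak (4.96), and the Cntn5 member had 5 summit fragments. The median distance to the nearest coding gene end was 11.9 kb over all members, and 703 (26.1%) lay within 5 kb. At the distance limit, members of Golga7, Tns2 and Pdxp stood 2001, 2002 and 2008 bp from an end with folds of 14.9, 9.36 and 10.5, and peaks at Otp, Pnmal2 and Rab21, at 1997, 1996 and 1994 bp with folds of 10.9, 9.84 and 10.7, were not members. At the width limit, members in Srpk2, Brd3 and Usp34 were 1496, 1483 and 1483 bp wide with folds of 7.43, 9.14 and 8.15. Peaks of 1502, 1507 and 1508 bp in Chd9, Casz1 and Pde10a, with folds of 7.89, 6.58 and 7.53, fell outside. In all, 111 gene-body peaks were too wide, and they had a median fold of 7.53 with 93 summit fragments.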

How the data were processed

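The 6 peak lists, 1 per library, came from CUT&RUN on gastrocnemius, and samples were grouped by their titles and genotype labels. The submitters' processing notes name Bowtie2, MACS2 and the build mm10, without versions. The sources used here do not state the parameters, whether an input was the control in peak calling, or whether libraries share animals. For each peak the authors deposited a fold (a ratio of summit pileup to local background), −log10 p and −log10 q values, a score and a summit offset. The deposited score restates −log10 q and, like the offset, entered no value. No list held a −log10 q below 1.3.

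Genes, gene ends and starts came from RefSeq tables on GRCm38.p6, the assembly of mm10. Starts were listed for 16457 coding genes. Gene tables gave no exons, so members were not placed in exons or introns. Overlap meant 1 bp or more. The fold equals summit fragments plus 1 over background plus 1 and p is a Poisson tail, which gave whole fragment counts for 98.0% to 99.97% of the peaks of a list, with −log10 p matched within 0.1%. Depth per library is not stated: the lowest local background was 0.544 fragments for CKO H3K9me2, 0.371 for the CKO input, 0.482 for Ctrl H3K4me3, 0.391 for Ctrl H3K9me2 and 0.294 and 0.292 for the Ctrl inputs. Shares carry exact Clopper-Pearson 95% intervals, for counting error alone.

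The members and the 14 gene lists were chosen with earlier results of these data known. The genes named are the highest members by fold and by summit fragments, the hosts with most members, the farthest members, those at each limit, up to 4 hosts per list, the highest by H3K9me2, input and non-coding neighbour, the highest with no marked end, and genes with several marked starts. The last set, the examples at microRNA genes and further genes of the lists were added after their values were seen. Some genes the rule would name are not reported here. Classes, overlaps and fragment counts were tested on simulated data. Alternatives changed the distance, width, q, fold, overlap and window limits, the input libraries used and the list lengths. Tools were matplotlib 3.10.9, scipy 1.17.1, pandas 2.3.3 and numpy 2.4.6 under Python 3.11.15.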

Additional observations from a re-analysis of the deposited data

How the results depend on the processing

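Of 109 recomputed values, 70 stayed within the exact interval or within 1.5 times of the count, and 39 moved; none has a direction to reverse. Dropping peaks below the list's median fold left 859 members in 832 genes, with 46.6% at input peaks, 13.5% at CKO H3K9me2 peaks and 3.49% at Ctrl H3K9me2 peaks. At q of 1e-05 or less the input share was 31.4%, the CKO H3K9me2 share 7.96%, hosts with a marked end 58.5%, median fold 9.08, summit fragments 37, width 689 bp, blood and immune hosts 1, and matched members at a listed start 48.9%. Without members overlapping input, hosts with a marked end were 67.3%, median fold 6.20, fragments 16, width 520.5 bp and members at a start 31.7%. At 5 kb from gene ends, input was 23.4%, CKO H3K9me2 5.52%, hosts with a marked end 65.5%, fragments 17, width 563 bp, Schwann hosts 0 and members at a start 36.1%. With a width limit of 1000 bp, input was 21.4%, CKO H3K9me2 5.27% and Ctrl H3K9me2 1.04%, and with no limit the median width was 616 bp. Input-free H3K9me2 peaks gave 2.52% in CKO and 0.260% in Ctrl, and lists of equal length 1.52% in CKO. Leaving out either Ctrl input gave input shares of 23.7% to 24.4%. End windows of 1 and 5 kb gave 55.1% and 80.1%, non-coding windows of 500 bp and 5 kb gave 6.97% and 21.7%, and start windows of 250 and 1000 bp gave 30.3% and 43.8%. The alternatives for listed starts were chosen after seeing the data. The causes of these shifts were not tested. No paired analysis was possible because each mark and genotype has 1 library and no result comes from a test. Summits of 4 to 10 fragments limit the lowest members.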
